A study of Homo sapiens with 6 samples.

Results

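Ribosome biogenesis genes and the genes of RNA polymerases I and III were followed after silencing of the chromatin protein SETD5 in Huh7 cells, a long-established liver cancer line of human origin that keeps many traits of hepatocytes. The members were taken by symbol: names that begin with NOP, NOL, UTP, RRP or EXOSC and a digit, names that begin with POLR1 or POLR3, and 10 listed symbols (FBL, DKC1, NCL, NPM1, BOP1, PES1, WDR12, GNL3, UBTF and RRN3), kept where the mean over the 6 libraries was at least 1 CPM (read counts scaled to library size). The rule found 70 genes among the 14200 of the table, and all 70 passed the level limit, as did 12865 genes in total. The lowest members were NOL3, NOP14-AS1 and RRP7BP with means of 4.78, 6.21 and 9.74 CPM, so no symbol of the rule lay near the limit. The rule uses names and levels and not the response to the knockdown. The label fits by known role for most members, with 4 exceptions: NOL3 and NOL4L share only the prefix, NOP14-AS1 is an antisense RNA and RRP7BP is a pseudogene.

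Poly(A)-selected RNA was sequenced from 3 SETD5 knockdown libraries, made after siRNA transfection, and 3 control libraries of the same cells. The siRNA sequence and the treatment of the control cells are not stated in the labels. Since nothing in the labels ties the 3 libraries of a group to separate cultures, the p-values cover the spread among libraries alone, and that spread may be technical. All values are CPM computed from the deposited log2(CPM + 1), and the log2 fold changes are knockdown minus control on that scale, which understates the change of genes near 1 CPM.

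Ribosomes are built in the nucleolus, where RNA polymerase I transcribes the long precursor of the large ribosomal RNAs, while RNA polymerase III makes the small ribosomal RNA and the tRNAs. Small nucleolar ribonucleoproteins (snoRNPs) modify the precursor, a large assembly called the small-subunit (SSU) processome cuts and folds its first part, other factors assemble the large subunit, and the RNA exosome trims and degrades the pieces left over. Hepatocytes and liver cancer cells make many ribosomes to sustain their protein output and growth.

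SETD5 itself had 136, 140 and 138 CPM in the knockdown libraries and 212, 210 and 202 CPM in the controls, without overlap (log2 fold change -0.59, SE 0.0318, limma with Benjamini-Hochberg adjustment, adjusted p = 1.15e-17). The libraries held 14038447 to 17095417 recovered reads, and 3 reads corresponded to 0.176 to 0.214 CPM, so that even the lowest member, NOL3 at a mean of 4.78 CPM, was well above that level. Hepatocyte markers (ALB, AFP, APOA1, APOB, TTR and SERPINA1, 6 of 6 in the table) summed to 34601 to 34984 CPM in the knockdown and 37134 to 37893 CPM in the control. Fibroblast markers (3 of 4 in the table) summed to 308 to 321 CPM in the knockdown and 174 to 185 CPM in the control. Leukocyte markers (2 of 3) summed to 8.94 to 10.1 CPM in the knockdown and 6.73 to 8.86 CPM in the control, and endothelial markers (2 of 3) to 0.614 to 0.938 CPM in the knockdown and 0.786 to 1.35 CPM in the control. The part of these marker shifts in the results below was not tested.

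The ribosome biogenesis genes showed small changes in both directions. Limma called 26 of the 70 members at an adjusted p under 0.05, 37.1% of them, beside 52.1% of all 12865 tested genes. Of the members 15 were higher after knockdown (21.4%, beside 25.7% of all tested genes) and 11 were lower (15.7%, beside 26.5%). A call with a change of at least 1.2-fold on the log2(CPM + 1) scale was made for 3 members, POLR3D, POLR3B and NOL3 (4.29%, beside 27.4% of all tested genes). UTP14A, also called, fell short of it on that scale, though its mean CPM differed 1.202-fold. The knockdown and control libraries did not overlap in 35 members (50%, beside 57.3% of all tested genes), and all 26 called members were among them. In bulk RNA, fewer cells of a kind and less RNA per cell cannot be told apart.

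The members had smaller fold changes than the tested genes at a similar precision. The median absolute log2 fold change was 0.08 over the members and 0.16 over all tested genes, while the median standard error was 0.0469 for the members and 0.0591 for all tested genes. The members spanned log2 fold changes of -0.29 to 0.27, and all tested genes -1.83 to 2.30. Within 1.2-fold of the control on that log2 scale lay 67 members (95.7%) and 9139 tested genes (71.0%). The members were also more abundant, with a median level of 51.8 CPM beside 29.4 CPM. The median signed log2 fold change was 0.02 over the members and -0.0012 over all tested genes, and 39 of the 70 members were above 0. These are descriptions, and the difference between the members and the other genes was not tested.

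**Figure D1:**
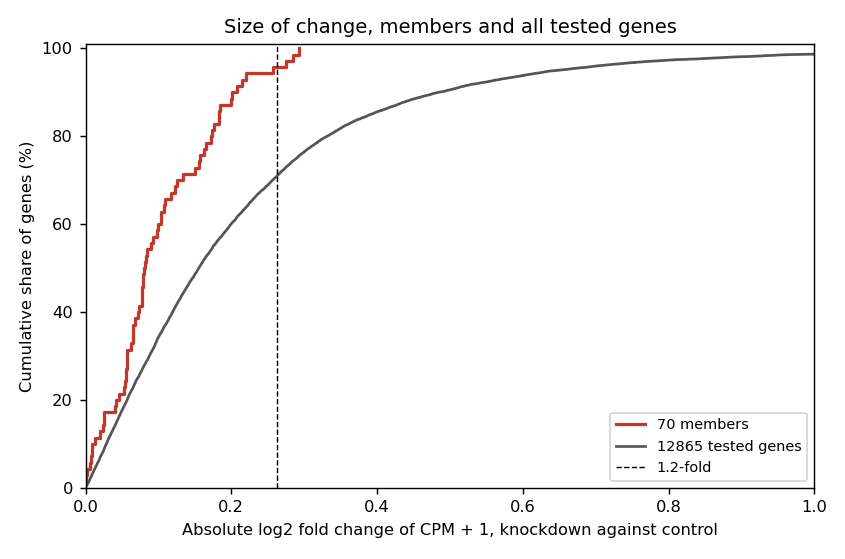
Cumulative share of genes (%) against the absolute log2 fold change of CPM + 1 between knockdown and control, for the 70 members and all 12865 tested genes, with a dashed line at 1.2-fold; the axis ends at 1. At the dashed line the curve of the members has reached 95.7% and that of all tested genes 71.0%.

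Summed over the 70 members, the libraries held 8389, 8565 and 8269 CPM after knockdown and 8228, 8491 and 8213 CPM in the control. The groups overlapped, with means of 8408 ± 149 CPM after knockdown and 8311 ± 157 CPM in the control (SD, n = 3 each), a difference of 1.17%, which ran between 0.222% without SETD5 knockdown replicate 2 and 2.28% without control replicate 2. It was also 0.665% without control replicate 1, 0.577% without control replicate 3 and 2.00% without SETD5 knockdown replicate 3. NCL and NPM1 made up 44.9% of the total. Without them the sum was 4653 ± 71.1 CPM after knockdown and 4565 ± 59.0 CPM in the control, 1.93% higher. The difference in the total over all members was smaller than the spread between replicates, and the individual members are described below by role.

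**Figure D2:**
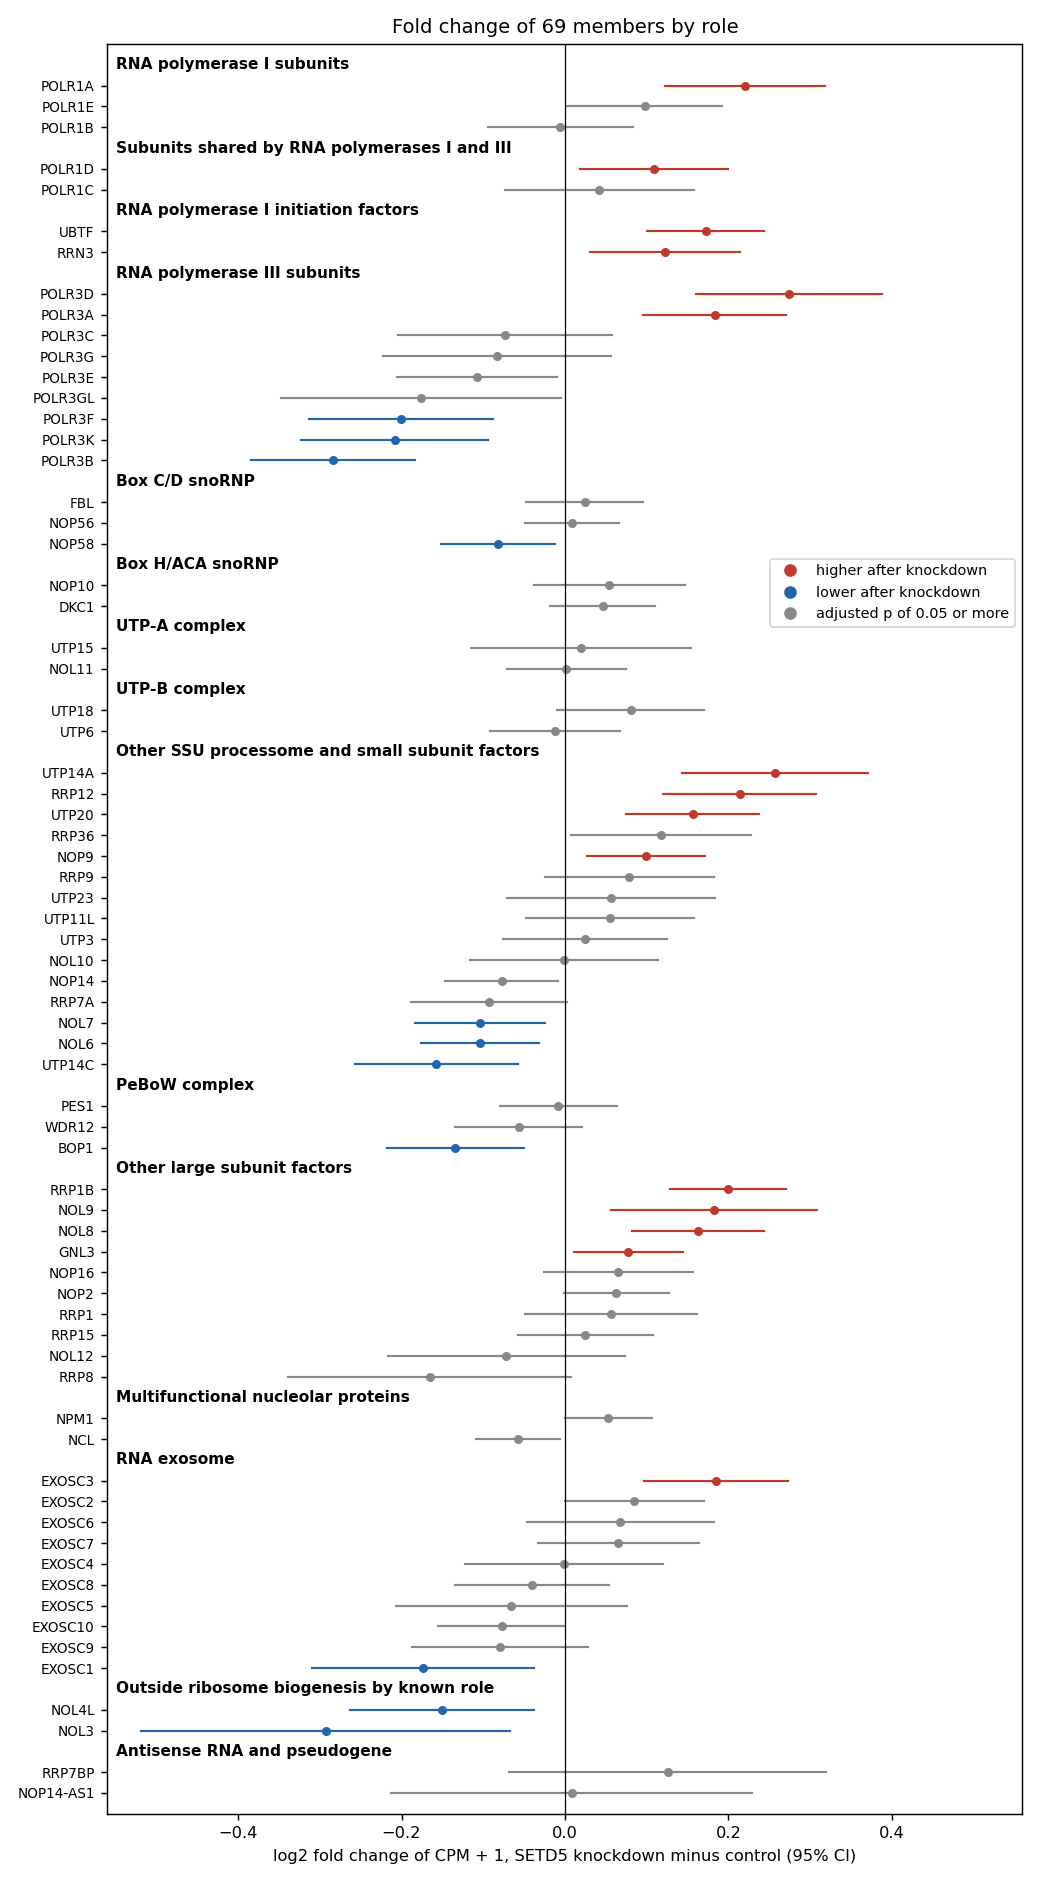
Log2 fold change of CPM + 1 (knockdown minus control) of 69 members with its 95% confidence interval from limma, grouped by role and coloured by whether the adjusted p was under 0.05. All points lie between -0.29 and 0.27, and red and blue points stand in the same group among RNA polymerase III subunits, small-subunit factors and the RNA exosome.

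Calls among the RNA polymerase I genes found by symbol were all in the higher direction. Of its 3 subunits found by name, its 2 initiation factors and the 2 subunits shared with RNA polymerase III, 4 of 7 rose and none fell, beside 25.7% higher and 26.5% lower of all tested genes; of 16 outside factors of this polymerase, given further on, 5 were lower. POLR1A, the largest subunit and part of the catalytic centre, had 88.3, 91.6 and 74.9 CPM in the knockdown libraries, against 73.4, 71.3 and 72.8 CPM in the controls. The lowest knockdown library lay just above the highest control, and the means differed 1.17-fold (85.0 ± 8.84 and 72.5 ± 1.08 CPM in knockdown and control, log2 fold change 0.22, SE 0.0483, limma adjusted p = 0.000229). Without limma's mean-variance trend the call ended (adjusted p = 0.0527). POLR1B, the second-largest subunit, which forms the catalytic cleft together with POLR1A, had 57.9 ± 1.92 CPM after knockdown and 58.1 ± 1.57 CPM in the control, with a 95% interval of -0.09 to 0.08 on the log2 scale. POLR1E, part of a pair of subunits that acts in initiation and elongation, had 63.1 ± 0.885 and 59.0 ± 4.55 CPM in knockdown and control, with overlapping libraries (limma adjusted p = 0.0797).

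Both initiation factors rose. UBTF, which binds and opens the ribosomal gene repeats, had 125, 119 and 119 CPM in the knockdown libraries and 107, 109 and 106 CPM in the controls. The groups stood clearly apart, 1.13-fold (log2 fold change 0.17, SE 0.0351, limma adjusted p = 8.92e-05). RRN3, which carries the polymerase to the promoter, had 69.3, 64.4 and 62.3 CPM after knockdown and 60.8, 61.8 and 57.1 CPM in the control. The gap between the groups was narrow (log2 fold change 0.12, limma adjusted p = 0.0225), and the call did not hold without SETD5 knockdown replicate 1 (adjusted p = 0.196), without control replicate 3 (0.143) or without the trend (0.111). RRN3 has near-identical copies in the genome, so its read count is uncertain. Summed, the 2 initiation factors held 186 ± 7.24 CPM after knockdown and 167 ± 3.86 CPM in the control.

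Subunits POLR1C and POLR1D form a dimer that starts the assembly of both polymerases. POLR1D had 56.4, 54.7 and 57.2 CPM after knockdown and 50.1, 53.1 and 52.6 CPM in the control, a separation of the groups by 1.08-fold (limma adjusted p = 0.0382). This call ended without SETD5 knockdown replicate 1 (adjusted p = 0.0923) or 3 (0.123), without control replicate 1 (0.172) or 3 (0.0528), and without the trend (0.0668). Its partner POLR1C had 29.3 ± 0.735 CPM after knockdown and 28.4 ± 1.07 CPM in the control and was not called (adjusted p = 0.557).

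Among 10 RNA polymerase III subunits 2 were higher, 3 lower and 5 not called, a share of calls near the 52.1% of all tested genes. Both subunits of the catalytic centre were called, in opposite directions. POLR3A, the largest subunit, had 68.7, 70.1 and 64.8 CPM after knockdown and 60.8, 60.6 and 57.6 CPM in the control, with no overlap (1.14-fold, log2 fold change 0.18, SE 0.043, limma adjusted p = 0.0005). POLR3B, the second-largest subunit, had 35.9, 37.6 and 36.5 CPM after knockdown and 45.9, 45.4 and 43.3 CPM in the control. It fell to 0.817 times the control, with every knockdown library below every control (log2 fold change -0.28, SE 0.0495, limma adjusted p = 8.88e-06), the lowest log2 fold change among the polymerase genes found by symbol.

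Calls around the centre also went both ways. POLR3D, which with POLR3E forms a pair that acts in initiation and termination, had 38.7, 39.3 and 44.9 CPM after knockdown and 34.5, 32.1 and 34.3 CPM in the control. It rose 1.22-fold, the highest log2 fold change of any member (0.27, SE 0.056, limma adjusted p = 9.07e-05). POLR3E had 47.1 ± 2.9 CPM after knockdown and 50.8 ± 0.842 CPM in the control; its libraries did not overlap, but the test did not pass (log2 fold change -0.11, adjusted p = 0.0595). POLR3K, the small subunit that lets the enzyme cleave its transcript, had 28.1, 27.9 and 26.4 CPM after knockdown and 32.8, 31.9 and 31.0 CPM in the control. It fell to 0.861 times the control, with a wide gap between the groups (limma adjusted p = 0.00218).

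The initiation subcomplex of RNA polymerase III joins POLR3C and POLR3F to either POLR3G or its paralog POLR3GL. All 4 had log2 fold changes below 0, and 1 passed the test, beside 52.1% of all tested genes. POLR3F had 29.3, 28.4 and 29.1 CPM after knockdown and 32.3, 35.0 and 32.9 CPM in the control, a fall to 0.866 times the control without overlap (log2 fold change -0.20, SE 0.0554, limma adjusted p = 0.00266). POLR3GL had 11.2 ± 0.605 CPM after knockdown and 12.8 ± 1.09 CPM in the control (limma adjusted p = 0.0784). POLR3G and POLR3C had log2 fold changes of -0.08 and -0.07 with adjusted p of 0.324 and 0.353. The 10 subunits summed to 350.2 ± 2.04 CPM after knockdown and 363 ± 3.15 CPM in the control.

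**Figure D3:**
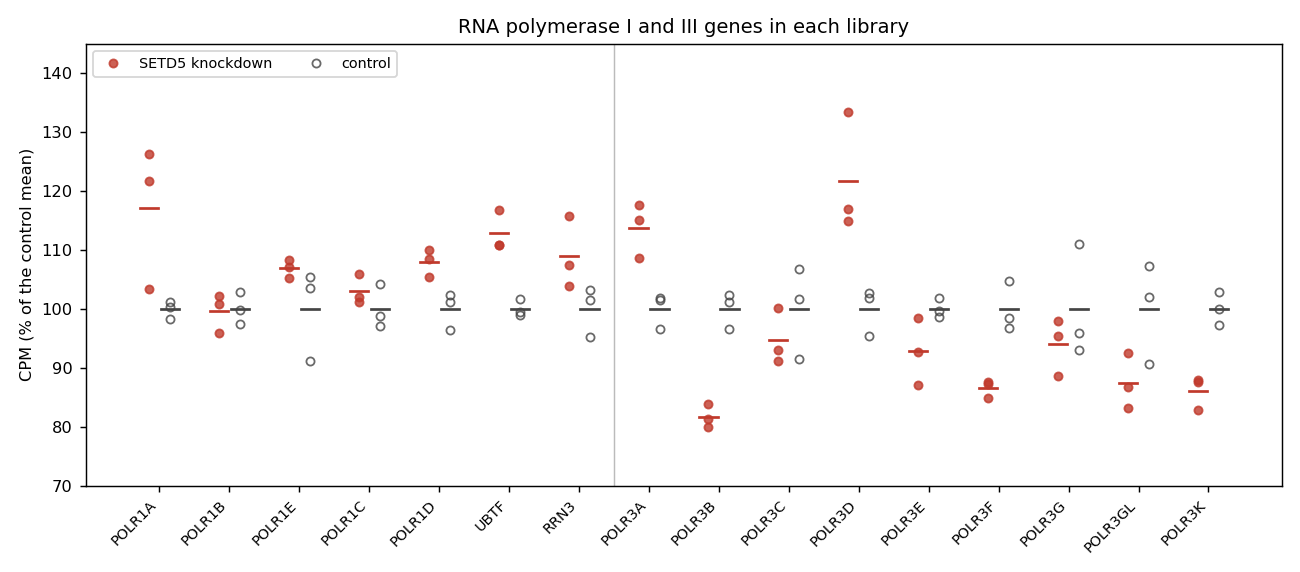
CPM of 16 RNA polymerase I and III genes in each library, as a percent of the control mean of the same gene, with filled circles for knockdown, open circles for control and short lines for group means. Of the 16 genes 6 were called higher and 3 lower, beside 25.7% higher and 26.5% lower of all tested genes. The knockdown circles of POLR3A and POLR3D lie above all control circles, and those of POLR3B, POLR3F and POLR3K below them.

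Because POLR3A and POLR3B are needed in equal number in the enzyme, their ratio within a library was also taken, as a description of a pair chosen after its values were seen. POLR3A over POLR3B was 1.91, 1.86 and 1.78 in the knockdown libraries and 1.32, 1.33 and 1.33 in the controls. The mean was 1.85 ± 0.0696 after knockdown and 1.33 ± 0.00521 in the control, 1.39 times as high after knockdown. POLR1A over POLR1B was 1.51, 1.54 and 1.34 after knockdown and 1.30, 1.19 and 1.25 in the control, 1.17 times as high. For POLR3G over its paralog POLR3GL the groups overlapped, at 1.74, 2.14 and 2.00 after knockdown and 1.62, 1.98 and 1.86 in the control. PES1 over BOP1 was 1.46, 1.44 and 1.53 after knockdown and 1.39, 1.36 and 1.31 in the control, 1.09 times as high. The ratios were not planned in advance. Each pair whose groups stood apart holds a member already called without overlap, so its separation is not a further result. These ratios concern messenger RNA in CPM, not corrected for transcript length, and say nothing of the protein.

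**Figure D4:**
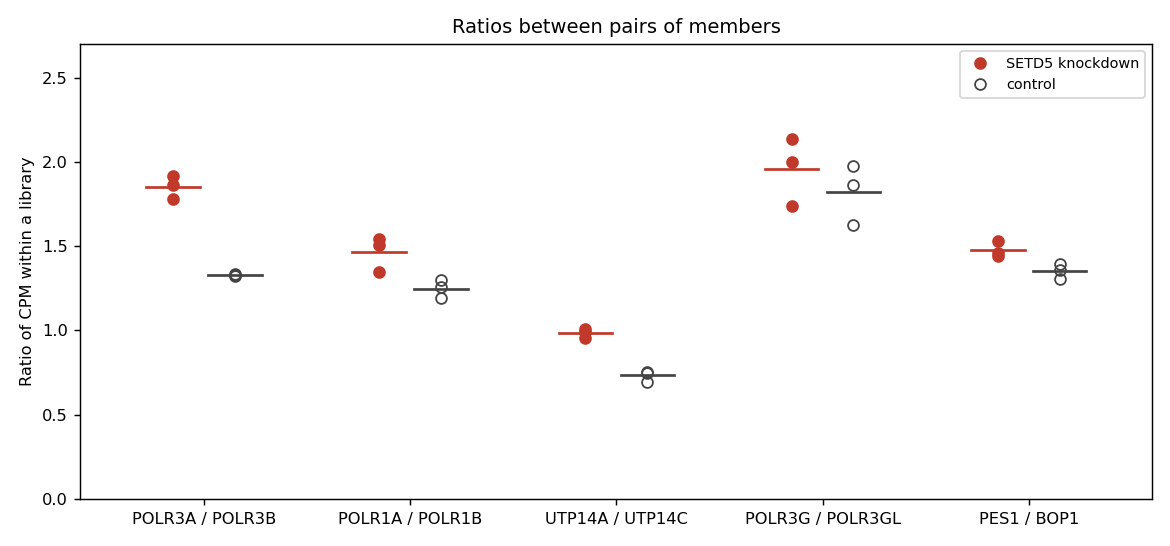
Ratio of CPM within each library for 5 pairs of members, with filled circles for knockdown, open circles for control and lines for group means. The ratio POLR3A over POLR3B is 1.78 to 1.91 after knockdown and 1.32 to 1.33 in the control. The groups overlap in POLR3G over POLR3GL and in none of the other 4 pairs, each of which holds a member already called.

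Of the 5 core snoRNP proteins that the symbols reach, 1 was called, beside 52.1% of all tested genes. The H/ACA protein NHP2, outside the symbol rule, was also called lower and is given with the outside genes. Fibrillarin, FBL, the methyltransferase of the box C/D particles that guide ribose methylation, had 217 ± 15.4 CPM after knockdown and 213 ± 4.16 CPM in the control (95% interval of the log2 fold change -0.05 to 0.10). NOP56, a scaffold of the same particle, had 451 ± 1.71 CPM after knockdown and 448 ± 18.6 CPM in the control (interval -0.05 to 0.07). The other scaffold protein, NOP58, had 162, 164 and 160 CPM after knockdown and 168, 182 and 165 CPM in the control. NOP58 was called lower at 0.944 times the control (limma adjusted p = 0.043), but the gap between the groups was small. The call ended without SETD5 knockdown replicate 1 (adjusted p = 0.102) or 3 (0.116), without control replicate 2 (0.33), under median centring (0.0866), under voom (0.0615) and without the trend (0.2).

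Box H/ACA particles guide the conversion of uridine to pseudouridine. Their enzyme, dyskerin, encoded by DKC1, had 160 ± 1.81 CPM after knockdown and 155 ± 2.02 CPM in the control, not overlapping but not called (limma adjusted p = 0.228). NOP10, a small protein of the same particle, had 57.1 ± 1.64 CPM after knockdown and 55.0 ± 3.03 CPM in the control (adjusted p = 0.332).

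Members of the SSU processome were called in both directions. The UTP-A and UTP-B complexes, which bind the precursor first, held 4 members and none was called, beside 52.1% of all tested genes. Of the subunits outside the symbol rule, HEATR1 of UTP-A rose 1.07-fold (limma adjusted p = 0.0304) and TBL3 of UTP-B fell to 0.873 times the control (adjusted p = 0.00181). NOL11 had 104 ± 3.06 CPM after knockdown and 104 ± 1.8 CPM in the control, and UTP6 had 72.2 ± 0.492 CPM after knockdown and 72.8 ± 1.37 CPM in the control. UTP18 had 59.99 ± 2.01 CPM after knockdown and 56.7 ± 2.24 CPM in the control, with no overlap between the libraries (adjusted p = 0.128), and UTP15 had a log2 fold change of 0.02 (adjusted p = 0.818). Of the other 15 small-subunit factors, 4 rose and 3 fell, beside 25.7% higher and 26.5% lower of all tested genes.

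UTP14A, which activates a helicase that frees the processome from the U3 snoRNA, had 35.8, 40.9 and 38.5 CPM after knockdown and 32.8, 32.9 and 30.1 CPM in the control. Its copy UTP14C, an intronless gene derived from UTP14A, had 37.6, 40.6 and 38.8 CPM after knockdown and 43.7, 43.7 and 43.2 CPM in the control. UTP14A thus rose by 20.2% (log2 fold change 0.26, SE 0.0562, limma adjusted p = 0.000224), and UTP14C fell to 0.895 times the control (log2 fold change -0.16, SE 0.0492, limma adjusted p = 0.00736), in both cases with the groups apart. Their ratio, also taken after the values were seen, was 0.953, 1.01 and 0.991 after knockdown and 0.75, 0.753 and 0.696 in the control. The 2 genes are near-identical in their coding part, so how the authors' counting divided reads between them is uncertain.

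RRP12, a factor in maturation and export of small subunits, had 74.6, 70.2 and 64.5 CPM after knockdown and 58.7, 62.3 and 58.7 CPM in the control. It rose 1.16-fold, with the groups apart (log2 fold change 0.21, SE 0.0462, limma adjusted p = 0.000189). UTP20, a large scaffold of the processome, had 132, 137 and 125 CPM after knockdown and 109, 120 and 124 CPM in the control, so the lowest knockdown library lay just above the highest control (1.11-fold, limma adjusted p = 0.00129, or 0.0772 without the trend). NOP9, an RNA-binding protein of the early precursor, was called 1.07-fold higher (107 ± 2.78 and 99.7 ± 1.64 CPM in knockdown and control, adjusted p = 0.0195). The NOP9 call ended without SETD5 knockdown replicate 2 (adjusted p = 0.0844) or 3 (0.0523), without control replicate 2 (0.0597) and without the trend (0.0733).

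The remaining called small-subunit factors were lower. NOL6, a processome protein, had 104, 104 and 102 CPM after knockdown and 115, 109 and 110 CPM in the control, 0.929 times the control (limma adjusted p = 0.0136). NOL7, a nucleolar protein of early processing, had 79.6, 78.7 and 74.7 CPM after knockdown and 83.7, 85.5 and 81.3 CPM in the control, 0.93 times the control (limma adjusted p = 0.026). Both gaps were small. The NOL6 call ended without control replicate 1 (adjusted p = 0.103) and without the trend (0.0646), and the NOL7 call without SETD5 knockdown replicate 3 (0.152), without control replicate 1 (0.0643) or 2 (0.0889) and without the trend (0.0864). Among the 8 not called, log2 fold changes ran between those of RRP7A (-0.09, adjusted p = 0.0983) and RRP36 (0.12, adjusted p = 0.0671). NOP14 had 122 ± 2.45 CPM after knockdown and 129 ± 3.16 CPM in the control (limma adjusted p = 0.0562, or 0.0447 with a replicate block). NOP14 overlaps its antisense RNA NOP14-AS1, and the counting is not stated to use strand, so their reads may not be separated.

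Among large-subunit factors the called genes of the PeBoW complex and of the wider group went in different directions. PeBoW, made of PES1, BOP1 and WDR12, is needed to process the precursor of the large subunit. BOP1 had 80.8, 85.7 and 75.3 CPM after knockdown and 87.8, 87.1 and 90.4 CPM in the control, a fall to 0.911 times the control with a narrow gap (log2 fold change -0.13, limma adjusted p = 0.00688). The BOP1 call ended without SETD5 knockdown replicate 3 (adjusted p = 0.0997) and without the trend (0.0846). PES1 had 119 ± 4.19 CPM after knockdown and 120 ± 2.28 CPM in the control, and WDR12 had 74.7 ± 0.556 CPM after knockdown and 77.7 ± 0.976 CPM in the control, without overlap but not called (adjusted p = 0.222).

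Of the other 10 large-subunit factors 4 rose, none fell and 6 were not called, beside 25.7% higher and 26.5% lower of all tested genes. RRP1B, a nucleolar protein that directs a phosphatase to the nucleolus, had 131, 140.4 and 133 CPM after knockdown and 117, 115 and 120.0 CPM in the control. It rose 1.15-fold (log2 fold change 0.20, SE 0.0349, limma adjusted p = 9.69e-06), with a gap wider than the spread within either group. NOL8, an RNA-binding nucleolar protein, had 79.8, 78.7 and 78.0 CPM after knockdown and 69.3, 73.1 and 68.7 CPM in the control, again with the groups apart (1.12-fold, limma adjusted p = 0.000766).

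The remaining called members of this group lost their call when single libraries were left out. NOL9, a polynucleotide kinase that works on the spacer between the large-subunit RNAs, had 26.9, 26.9 and 25.8 CPM after knockdown and 21.7, 24.3 and 23.9 CPM in the control. It was called 1.14-fold higher (limma adjusted p = 0.0135), but not without control replicate 1 (adjusted p = 0.109), its lowest library. Nucleostemin, GNL3, a nucleolar GTPase of proliferating cells, had 165, 166 and 164 CPM after knockdown and 156, 163 and 151 CPM in the control, 1.06-fold higher with an adjusted p of 0.047. The GNL3 call ended without SETD5 knockdown replicate 1 (0.0988), 2 (0.105) or 3 (0.0635), without control replicate 1 (0.112) or 3 (0.256), and without the trend (0.171). NOP2, an RNA methyltransferase, had a log2 fold change of 0.06 (adjusted p = 0.0949), and RRP8, another methyltransferase homolog, -0.17 (adjusted p = 0.102). Summed, the 10 genes held 755 ± 9.51 CPM after knockdown and 707 ± 7.27 CPM in the control.

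Nucleolin and nucleophosmin are abundant nucleolar proteins with many functions, and neither was called. Nucleolin, NCL, had 1640, 1697 and 1623 CPM after knockdown and 1691, 1756 and 1714 CPM in the control (log2 fold change -0.06, limma adjusted p = 0.0587). Nucleophosmin, NPM1, had 2102, 2141 and 2061 CPM after knockdown and 2000, 2102 and 1975 CPM in the control (log2 fold change 0.05, limma adjusted p = 0.0892). The libraries of both genes overlapped between the groups. NCL passed under quantile normalization (adjusted p = 0.00721), under voom (0.0339), with a replicate block (0.0321) and without SETD5 knockdown replicate 2 (0.0145), each time lower after knockdown. NPM1 passed as higher under median centring (adjusted p = 0.0479), under voom (0.013), with a replicate block (0.0468) and without control replicate 2 (0.00729). Quantile normalization instead gave a log2 fold change of -0.08 with an adjusted p of 0.00183, so no direction can be given for NPM1. NPM1 also has near-identical pseudogenes that can share its reads.

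The RNA exosome is a ring of EXOSC4 to EXOSC9 under a cap of EXOSC1, EXOSC2 and EXOSC3, to which nucleases such as EXOSC10 attach. None of the 6 ring genes was called, beside 52.1% of all tested genes. EXOSC4 had 26.1 CPM after knockdown and 26.1 CPM in the control. In the cap, EXOSC3 had 71.8, 74.8 and 75.0 CPM after knockdown and 68.7, 60.7 and 65.4 CPM in the control. It rose 1.14-fold without overlap (log2 fold change 0.18, SE 0.0436, limma adjusted p = 0.000542). EXOSC1, another cap protein, had 18.9, 20.8 and 18.2 CPM after knockdown and 22.0, 21.7 and 21.9 CPM in the control, 0.883 times the control (limma adjusted p = 0.0292). That call ended without SETD5 knockdown replicate 1 (adjusted p = 0.0843) or 3 (0.139) and without control replicate 1 (0.0729) or 3 (0.0645). EXOSC2 had 74.0 ± 3.76 CPM after knockdown and 69.7 ± 1.44 CPM in the control (adjusted p = 0.0883). EXOSC10, the nuclear nuclease, had 96.2 ± 1.06 CPM after knockdown and 102 ± 5.32 CPM in the control (adjusted p = 0.0895), and passed, among the fits that leave out a library, in the fit without control replicate 1 (adjusted p = 0.0212).

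The 4 members outside the pathway by role were at low to moderate levels. NOL3, whose protein represses apoptosis, had 3.94, 4.05 and 4.61 CPM after knockdown and 5.74, 5.43 and 4.93 CPM in the control, the lowest log2 fold change of any member (-0.29, SE 0.111, limma adjusted p = 0.0266). The groups lay apart by little, and the call ended without SETD5 knockdown replicate 1 (adjusted p = 0.0895) or 2 (0.0672) and without control replicate 1 (0.106) or 2 (0.0597). NOL4L had 30.3 ± 0.928 CPM after knockdown and 33.7 ± 1.46 CPM in the control (limma adjusted p = 0.0222), a call that ended without SETD5 knockdown replicate 2 (0.0532) or 3 (0.0776) and without control replicate 1 (0.0923) or 3 (0.0771). NOP14-AS1 and RRP7BP, a near-identical copy of RRP7A, were not called (adjusted p = 0.953 and 0.281).

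Calls were firmest in a small set. Of the 26 called members, 12 kept their call under all 15 alternatives tried: EXOSC3, NOL8, POLR3A, POLR3B, POLR3D, POLR3F, POLR3K, RRP12, RRP1B, UBTF, UTP14A and UTP14C. All 5 called RNA polymerase III subunits were among them. The other 14 lost the call under at least 1, and none reversed. UTP14C kept its call narrowly, with a highest limma adjusted p of 0.0495. How reads were divided between UTP14A and UTP14C is uncertain under every alternative. The same share was not taken over all called genes.

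Levels per kilobase of transcript allow members to be set beside each other; a length was found for 67. NPM1 had 1174 CPM per kb and NCL 418, followed by NOP56 with 187 and FBL with 185 CPM per kb. The RNA polymerase I subunits ran between 6.18 CPM per kb for POLR1A and 32.7 for POLR1E, and those of RNA polymerase III between 6.79 for POLR3D and 21.3 for POLR3K. Exosome subunits lay between 5.8 CPM per kb for EXOSC6 and 43.1 for EXOSC8, and the lowest member was RRP8 with 2.03 CPM per kb. These levels are means over all 6 libraries divided by the length of 1 GENCODE transcript per gene, the longest of its best-ranked coding transcripts. A long 3′ UTR in that transcript lowers the value. POLR1A was given 12.7 kb, with 7207 bases of 3′ UTR, and EXOSC6 5.15 kb, with 4304 bases. Which transcripts these cells make was not examined. On this measure the snoRNP proteins and both abundant nucleolar proteins stood above the polymerases. The low value of POLR1A depends on the length taken for it.

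Some genes escape the symbol rule because the table uses an older name. GLTSCR2, the older symbol of NOP53, a large-subunit factor that brings the exosome to the precursor, had 152, 163 and 166 CPM after knockdown and 139, 127 and 129 CPM in the control. It rose 1.22-fold without overlap (log2 fold change 0.28, SE 0.0365, limma adjusted p = 3.96e-08), which lies above the log2 fold change of every member. CIRH1A, the older symbol of the UTP-A protein UTP4, had 99.0 ± 1.96 CPM after knockdown and 96.6 ± 3.98 CPM in the control and was not called (adjusted p = 0.455).

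The same pathways hold many other genes that the symbols do not reach, and 141 of these were listed by role, of which 139 were tested. Of these 38 rose and 28 fell, 47.5% in all, beside 37.1% of the members and 52.1% of all tested genes. Of the 18 outside factors of RNA polymerase III, 10 were higher and 3 lower (72.2%), with a median log2 fold change of 0.11. The counts depend on how the lists were drawn up. TBP and the POLR2 subunits common to all nuclear RNA polymerases were listed with RNA polymerase I only. Among these, POLR2L and POLR2E were lower, and POLR2F, POLR2H, POLR2K and TBP were not called. SNAPC4, part of the complex that recognises promoters of small nuclear RNAs, had 67.2 ± 2.03 CPM after knockdown and 53.1 ± 1.86 CPM in the control, with a limma adjusted p of 4.32e-08. SNAPC1 was called 1.25-fold higher with overlapping libraries (limma adjusted p = 0.00428). The SNAPC1 call ended without SETD5 knockdown replicate 2 (adjusted p = 0.0503) and without the trend (0.0609). CRCP, a stalk subunit of the polymerase, had 40.8 ± 1.14 CPM after knockdown and 32.9 ± 1.02 CPM in the control (adjusted p = 6.38e-06). MAF1, the repressor of RNA polymerase III, rose 1.11-fold (adjusted p = 0.000834), and SSB, the La protein that binds its new transcripts, 1.09-fold (adjusted p = 0.000189). Among the subunits of TFIIIC, the factor that recognises tRNA gene promoters, GTF3C1, GTF3C2, GTF3C4 and GTF3C6 rose at 1.07 to 1.17 times the control, while GTF3C3 and GTF3C5 fell to 0.856 and 0.905 times. The TFIIIB subunit BDP1 rose 1.12-fold, and GTF3A, which binds genes of the small ribosomal RNA, fell to 0.91 times. Calls in both directions were thus found among the outside factors too.

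Of the 16 outside factors of RNA polymerase I, 3 were higher and 5 lower, 50% in all, near the 52.1% of all tested genes. POLR2L, a small subunit common to all nuclear RNA polymerases, had 57.4 ± 2.63 CPM after knockdown and 75.0 ± 1.3 CPM in the control (0.766 times, limma adjusted p = 1.67e-09). TWISTNB, a stalk subunit of RNA polymerase I, had 25.2 ± 1.18 CPM after knockdown and 31.7 ± 2.25 CPM in the control (0.794 times, adjusted p = 3.23e-05), and CD3EAP and ZNRD1, further subunits, fell to 0.869 and 0.839 times. TAF1A, part of the promoter selectivity factor, had 12.5 ± 0.847 CPM after knockdown and 10.4 ± 1.05 CPM in the control with overlapping libraries (adjusted p = 0.0172); its call ended without SETD5 knockdown replicate 1 (0.0837) and without control replicate 1 (0.0878) or 3 (0.0661). BAZ2A, the most abundant of these and part of a complex that silences ribosomal gene repeats, was not called (adjusted p = 0.819). The higher calls of POLR1A, UBTF and RRN3 thus stood beside lower calls of subunits that carry other symbols.

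The largest absolute log2 fold change of the 139 genes was that of an exosome partner. C1D, a cofactor of EXOSC10, had 26.8 ± 1.06 CPM after knockdown and 48.5 ± 0.628 CPM in the control, 0.553 times (log2 fold change -0.83, limma adjusted p = 6.4e-16). XRN2, a nuclear 5′ to 3′ exonuclease, rose 1.18-fold (385 ± 3.48 and 326 ± 9.77 CPM in knockdown and control, adjusted p = 4.55e-09), and RBM7, which guides the exosome to nuclear RNA, 1.23-fold. In all 6 of the 15 listed nucleases and cofactors rose, among them the catalytic subunit DIS3 at 1.09-fold, and 4 fell (66.7%, beside 52.1% of all tested genes).

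Further processing and assembly factors were mixed. Of 35 other genes listed with the small subunit 8 rose and 4 fell (34.3%, beside 52.1% of all tested genes). The helicase DDX52 rose 1.35-fold (80.8 ± 1.02 and 59.9 ± 2.16 CPM in knockdown and control, limma adjusted p = 4.61e-11). MPHOSPH10, the most abundant of this list, rose 1.11-fold (limma adjusted p = 0.000157). BCCIP and ESF1, on the same list, fell to 0.852 and 0.857 times. Of 41 tested genes listed with the large subunit 10 rose and 11 fell (51.2%, near that share). The place of single genes on the lists of the small and the large subunit is uncertain, among them BCCIP, NOC4L and DDX10. The counts by subunit depend on it. The helicase DDX51 fell to 0.819 times and SBDS, which releases the anti-association factor EIF6 from new subunits, to 0.851 times (70.5 ± 0.286 and 82.8 ± 3.57 CPM in knockdown and control). EIF6 itself, the most abundant of the large-subunit list, was called lower (0.947 times, limma adjusted p = 0.0287). The EIF6 call ended under several alternatives, among them without control replicate 1 (adjusted p = 0.12) and without the trend (0.142). MDN1, a giant ATPase that strips factors from the precursor, was called 1.21-fold higher, but its libraries overlapped and spread widely after knockdown (131 ± 20.7 and 107 ± 3.26 CPM in knockdown and control), and the call ended without the trend (adjusted p = 0.0884). Of 14 other snoRNP proteins and assembly factors 1 rose and 1 fell (14.3%). ZNHIT3 rose 1.29-fold, and the H/ACA protein NHP2 fell (0.922 times, limma adjusted p = 0.0118, or 0.0781 without SETD5 knockdown replicate 1). NOLC1, a chaperone of snoRNPs and the most abundant of that list, was not called (adjusted p = 0.628).

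The E-box CACGTG, a palindrome bound by MYC and related factors that are known regulators of ribosome biogenesis genes, was searched in the promoters, as letters only. RefSeq gave a window of 250 bases before to 50 after the start for 57 members. It held CACGTG in 16 of them (28.1%), beside 1054 of 10242 tested genes (10.3%) and 2030 of all 27305 promoters (7.43%). In 13 of the 19 occurrences the E-box lay within 50 bases of the start. Every occurrence after the start meets that limit, because the window ends there. The same share was not taken over all tested genes. The following windows (GRCh38.p14, 5′ to 3′ on the strand of the gene, E-box in capitals) belong to 2 called RNA polymerase and processome genes that rose, POLR3A at chr10:78029533-78029562 (minus strand) and UTP20 at chr12:101280083-101280112 (plus strand), to NOL8, which also rose, at chr9:92325342-92325371 (minus strand), to NOL6, which was lower, at chr9:33473894-33473923 (minus strand), and to FBL, which was not called, at chr19:39846356-39846385 (minus strand). They show the same word in members of every direction.
POLR3A: agaggaagcggaCACGTGggacactctacg
UTP20: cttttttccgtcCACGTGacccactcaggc
NOL8: gctccgttgggaCACGTGaccagaagttag
NOL6: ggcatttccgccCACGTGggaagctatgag
FBL: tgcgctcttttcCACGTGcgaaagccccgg

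The response of members with and without the E-box is given as a description. Of the 16 with it 4 were higher and 2 lower, with a median log2 fold change of 0.04, and of the 41 without it 8 were higher and 6 lower, with a median of 0.02. Over all tested genes the 1054 with it had 318 higher and 232 lower and a median of 0.02, and the 9188 without it had 2415 higher and 2475 lower and a median of -0.0025. The ETS word CCGGAAG, or CTTCCGG on the other strand, was in 16 member promoters (28.1%), beside 19.7% of tested genes and 10.7% of all promoters. These counts describe letters in a window and show no binding.

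Earlier results on these data pointed to the word GCACCT in 3′ UTRs, so the members were searched for it on the transcribed strand. Of 66 members with a 3′ UTR, 19 held it (28.8%), beside 3306 of 11535 tested genes (28.7%). The 19 had 7 higher and 4 lower calls and a median log2 fold change of 0.06, and the 47 without it 8 higher and 6 lower calls and a median of 0.0090. Over all tested genes those with the word had 817 higher and 1140 lower calls and a median of -0.04, and those without it 2296 higher and 1994 lower calls and a median of 0.01. The members with the word thus had more higher than lower calls and the tested genes with it more lower than higher calls, a difference that was not tested. The 3′ UTRs with the word were longer, with a median of 2495 bases in members with it and 401 in members without it. Sites are shown for 3 members that were lower, POLR3F (chr20:18484568-18484597, plus strand), UTP14C (chr13:52032363-52032392, plus strand) and NOL7 (chr6:13621058-13621087, plus strand), and 4 that were higher, POLR3A (chr10:77975697-77975726, minus strand), RRP1B (chr21:43695396-43695425, plus strand), RRP12 (chr10:97356832-97356861, minus strand) and POLR1A, which held 5 sites (1 shown, chr2:86023399-86023428, minus strand), in GRCh38 with the word in capitals. Not shown are the sites of NOL4L, which was lower and also held 5, and those of the other higher members. The bases around the word differ among the sites shown. They are not all different among the members. A site of EXOSC6 and the site of EXOSC2 share the stretch that follows the word. A site of NOP14 and a site of UTP14C that is not shown nearly share it.
POLR3F: acaaatctgtaaGCACCTtgatcttggact
UTP14C: tataaatttaatGCACCTtctatcctgaat
NOL7: acatcagcaacaGCACCTcttctactctcc
POLR3A: gagtgaactccgGCACCTgttgtcttctgc
RRP1B: tgtcctataaatGCACCTcctgtcaaaacc
RRP12: aggtgccatgagGCACCTttgctttctgcc
POLR1A: aatttttagtttGCACCTgaatcaggggct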

How the data were processed

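The values deposited by the authors are log2(CPM + 1) for 14200 genes in 6 libraries, per the file's name and its values. Per the submitters' processing notes, STAR 2.5.1, R 3.3.0 and the builds hg19 and mm10 were used, with no role named; which counter, scaling and filters were applied is not stated. The CPM recovered from each log2 value were whole multiples of 1 read (100% within 0.01 of a whole number). Summed over genes, they ran from 993401 in SETD5 knockdown replicate 3 to 1.00433e+06 in SETD5 knockdown replicate 2. Scaling to the plain read total alone does not give such sums.

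Means ± SD are over 3 libraries. A level limit of 1 CPM on the mean left out 1335 genes. The two-sided test used limma 3.58.1 under R 4.3.3, with lmFit on the group alone and eBayes with its trend option, and Benjamini-Hochberg adjustment over 12865 genes and a threshold of 0.05. All 95% intervals come from that fit. On simulated data of these 12865 genes, in this comparison, 56% of genes changed 1.2-fold were recovered, 92% at 1.5-fold, 98% at 2-fold and 100% at 4-fold (50 genes each), with 9 false calls. Far fewer genes were changed there than were called in the data, so the adjustment was stricter in the simulation. Alternatives were a pseudocount of 0.1, other level limits, median centring, median-of-ratios size factors, quantile normalization, no trend, voom on the recovered reads, a replicate block, looser symbol prefixes and leaving out each library.

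The members, role groups and lists were chosen with earlier results of these data known. Named genes are SETD5, called members changed at least 1.2-fold with no overlap, in each role group the most abundant and the most changed member, and from each other list up to 3 called genes and the most abundant; called members beyond these, and further genes of the lists, were added after their values were seen, and the alternatives were not run for those added list genes. CIRH1A and GLTSCR2, older symbols of UTP4 and NOP53, were not matched by the rule and are given as outside genes. Transcript lengths and 3′ UTRs come from GENCODE 29, promoters from RefSeq. For 1 member the values are not reported here and not drawn, though it is kept in the counts and sums. No hg19 annotation was used here. Precision from counting covers counting error only.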

Additional observations from a re-analysis of the deposited data

How the results depend on the processing

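The counts of members depended most on limma's mean-variance trend. Without it 9 members were called higher and 7 lower, in place of 15 and 11, 6 role groups in place of 10 held a call, and 18 other pathway genes in place of 28 were lower. The alternative lets each gene's spread be shrunk to a single common value; the cause was not tested further. Leaving out 1 library at a time gave 12 to 17 members higher and 7 to 11 lower, with 7 both without control replicate 1 and without SETD5 knockdown replicate 3. The member median then ran between 0.0066 and 0.039, with 7 to 10 role groups, 29 to 40 other pathway genes higher, 20 to 26 lower, a summed change of 0.222 to 2.28% and SETD5 at -0.61 to -0.57 on the log2 scale.

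Directions near 0 turned in 6 genes, none of them called in the reported test. Under median centring BAZ2A was 0.0018 and PES1 0.0027, and with 1 library left out BAZ2A ran between -0.032 and 0.0092, PES1 between -0.036 and 0.0135, NOL11 between -0.0119 and 0.026, NOP56 between -0.0135 and 0.042 and UTP15 between -0.050 and 0.088. Under quantile normalization NPM1 was -0.081, with an adjusted p of 0.00183.

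With a replicate block 17 members were higher and 14 lower. Correlations of deviations between same-numbered libraries were -0.0109, 0.0541 and 0.0417. SETD5 knockdown 2 and 3 correlated best with the control of the same number, and SETD5 knockdown 1 with control 3 (0.0215). All these correlations were small, so they do not settle whether the numbers pair the libraries. The remaining settings gave 15 to 17 members higher and 10 to 13 lower. Over the genes named by rule and the called members, 829 values kept direction and call, 60 lost the call and 10 gained it. With 3 libraries a group, changes of the size seen in most members can be missed. The simulated recovery of 56% at 1.2-fold does not measure how often. It came from 50 changed genes per fold, drawn from all levels, while 52.1% of all tested genes were called in the data.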
